A study of Mus musculus with 8 samples.

Results

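The comparison concerns mouse 2-cell embryos that had been injected as zygotes with mRNA for TRIM21 together with an antibody against COPS3, set against embryos injected with the same antibody and no Trim21 mRNA. Each group had 2 pools, so 4 of the 8 pools of the series were compared, chosen by their treatment labels. Each pool held 100 embryos of B6C3F1 x CD1 matings, and its total RNA was measured on 1 Affymetrix whole-transcript array after amplification with a GeneChip WT Pico kit. The other 4 arrays held 2 pools of non-manipulated embryos and 2 pools injected with Trim21 mRNA alone, and they served to measure the spread and to give the background. Levels are the deposited log2 values per transcript cluster. One cluster per gene, the one with the highest mean over the 8 arrays, left 30705 genes.

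In the protocol the injection went into the ooplasm of zygotes at the mid-pronuclear stage and culture lasted 28 h, while the age label gives 24 h in culture. Injection of the antibody alone is not described there. Per the labels, division to 2 cells was normal in both groups without antibody, and stunted in both groups with it, where many zygotes had not divided. No pool received a control antibody or a control mRNA. Each group was handled on a day of its own, with both of its pools on that day, so day and group cannot be told apart, and replicates of a group may measure little more than technical spread.

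TRIM21 is a cytosolic ubiquitin ligase with high affinity for the constant part of antibodies. When it meets an antibody bound to its antigen, it marks the complex for destruction by the proteasome, and this is the basis of acute protein removal in oocytes and zygotes, which hold little TRIM21 of their own. The antigen here, COPS3, belongs to the COP9 signalosome, an enzyme that strips NEDD8 from cullins and so resets cullin-RING ubiquitin ligases. At the 2-cell stage a mouse embryo degrades RNA inherited from the oocyte, starts transcription of its own genome with a short burst that includes the Zscan4 genes, and begins to build nucleoli and ribosomes. Protein was not measured, and the arrays do not tell injected Trim21 mRNA from the embryo's own.

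Against antibody alone, the embryos with both agents had lower levels of many genes for ribosome assembly, ribosomal proteins, the proteasome and chaperones. Of the proteasome genes 45% fell, beside 37.2% of all genes at like level. Many small noncoding RNAs, some clustered histone genes and the Zscan4 family had higher levels. Of 30705 genes, 4560 (14.9%) differed, 1343 higher (4.37%) and 3217 lower (10.5%), at an adjusted p under 0.05 in limma. At least 2-fold changes made up 814 of the rises and 2624 of the falls, and the median over all genes was 0.05 (log2). In every called gene both combined pools lay beyond both antibody-only pools, as did 45.7% of all genes. The share of rises among the calls was 29.5% on the deposited scale, 44% after quantile normalization, 39.6% after cyclic loess and 18.4% after centring each array on its median.

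Much of the uncertainty came from the antibody-only pools. They differed from each other at least 2-fold in 4689 genes, against 843 for the combined pools, 100 for the Trim21 mRNA pools and 52 for the non-manipulated pools. Across genes the correlation was 0.956 between the antibody-only pools and 0.986 between the combined pools. Antibody-only pool 2 was nearer the non-manipulated pools (0.975 and 0.976) than pool 1 was (0.941 and 0.942). Estimating the spread from the 4 compared arrays alone left 231 genes higher and 1177 lower, and giving each group its own spread left 356 and 1647. Both combined arrays and antibody-only array 1 also had a ceiling, with 136 to 169 clusters at their highest value against 1 on each other array. Only 1 called gene sat at such a ceiling.

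Each antibody-only pool was therefore also taken apart. With pool 1 as the only reference 27.5% of genes were called, 3180 higher (10.4%) and 5269 lower (17.2%), and with pool 2 as the only reference 34% were called, 4569 higher (14.9%) and 5877 lower (19.1%). These fits assume that a lone pool varies like the other groups, which the antibody-only pools did not. Of the calls against the mean of both pools, 1214 rises and 3080 falls were also called against each pool apart, 94.2% of the calls in all, while 570 genes were called in opposite directions by the pools. A stricter count, with both combined pools beyond both antibody-only pools and their mean at least 1 log2 unit from each, held 2948 genes (9.6%), 681 higher (2.22%) and 2267 lower (7.38%).

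**Figure D1:**
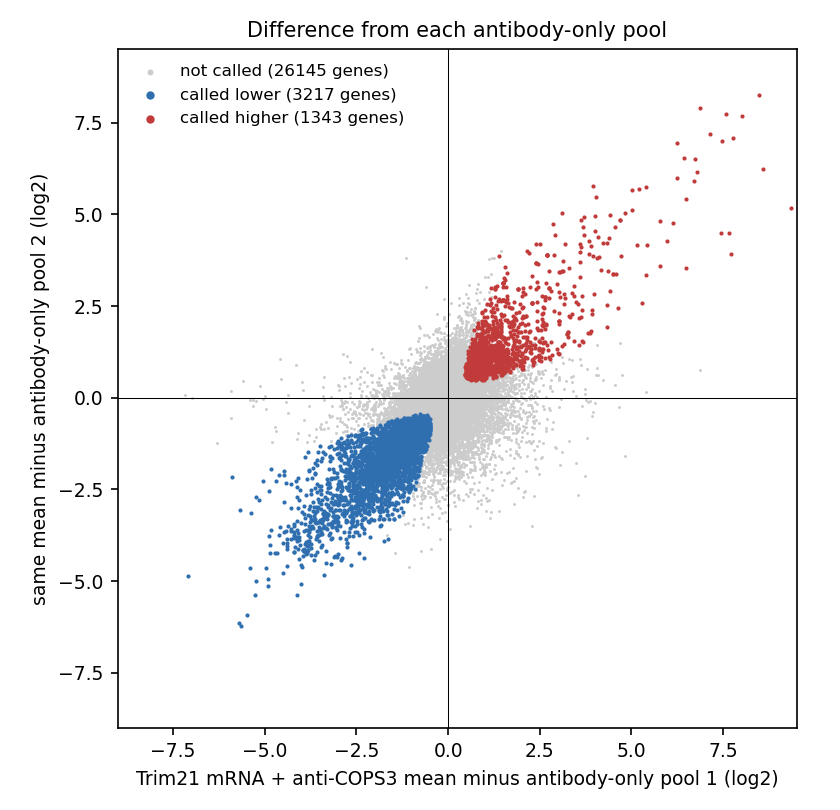
Each point is 1 of the 30705 genes. The x axis gives the mean of the combined pools minus antibody-only pool 1 and the y axis the same mean minus antibody-only pool 2, both in log2. Called genes, 1343 higher in red and 3217 lower in blue, lie in the quadrants where both differences have the same sign, and grey genes spread along both axes because the antibody-only pools differed.

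The falls were more frequent among genes with high array levels. Over genes with a mean level of 12 to 14 the median difference was -0.88, and over those at 14 and above it was -1.05, while genes between 4 and 6 had a median of 0.12. After quantile normalization the first 2 of these medians were -0.22 and -0.55. At levels of 8 to 10 the median was -0.425 as deposited and -0.024 after quantile normalization. At 10 to 12 it was -0.567 and -0.051. The standard deviation of levels was 2.38 and 2.27 on the combined arrays and 2.45 and 2.60 on the antibody-only arrays. On the other arrays it was 2.66 to 2.71. The share of genes called lower was 11.7% at levels of 6 to 8, 27.6% at 8 to 10, 37.2% at 10 to 12, 47.9% at 12 to 14 and 54.5% above, and these shares are the background for gene lists of like level. The share called higher stayed between 4.99% and 8.76% in these ranges. Relative to the non-manipulated pools, 2929 of the 3217 falls placed both agents below both of those pools, and in 2201 of the 3217 the antibody-only mean was within 1 log2 unit of the non-manipulated mean. For 931 falls the antibody-only pools were above both non-manipulated pools. Among the 1343 rises, the combined pools were above both non-manipulated pools for 1232, the antibody-only pools were below both for 414, and the antibody-only mean was within 1 log2 unit of the non-manipulated mean for 1156.

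The Trim21 signal followed the labels. Trim21 read 10.40 and 10.30 in the combined pools, 6.76 and 6.37 in the antibody-only pools, 9.77 and 10.14 with the mRNA alone and 6.27 and 5.65 in embryos left alone. All 4 injected pools that were labelled with the mRNA lay above all 4 that were not. The difference between the combined and antibody-only pools was 3.79 ± 0.26 (SE, n = 2 and 2; adjusted p = 0.000405). Trim21 was also the 1 gene (0.00326%) called, as higher, for Trim21 mRNA against non-manipulated embryos.

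Among the genes for the COP9 signalosome, 3 of 10 measured members fell (30%) and none rose. The list's median level was 10.50, where 37.2% of all genes fell. After quantile normalization 2 members were called higher and 2 lower. Cops3, which encodes the antibody's target, read 9.06 and 9.40 with both agents against 8.85 and 8.86 with antibody alone, a difference of 0.38 ± 0.16 (adjusted p = 0.197) that after quantile normalization became 0.88 (adjusted p = 0.0291). The mRNA level does not report on the protein. Cops6, a structural subunit, read 9.65 and 9.53 against 11.59 and 11.44 and fell by 1.93 ± 0.16 (adjusted p = 0.000594). Cops9 fell by 2.05, a call that was lost in the 4-array fit. Cops4 fell by 0.77 on the deposited scale but was not called after quantile normalization or loess. Of the subunits that were not called, Cops8 read 13.13 and 13.37 against 12.87 and 11.41 (1.11 ± 0.43), Cops7a differed by 0.52, Cops7b by -0.24 and Gps1 by -0.80. Cops2 read 9.64 and 9.57 against 11.47 and 9.74, the antibody-only pools being far apart. The subunit with the catalytic site, Cops5, read 8.44 and 8.40 against 7.59 and 10.04, above one antibody-only pool and below the other, so that the sign of its difference depended on the pool: 0.83 against pool 1 and -1.62 against pool 2.

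The genes with the largest rises were not a single kind. Tmem181a, which encodes a membrane protein, read 13.49 and 14.17 against 9.94 and 9.69 and rose by 4.02 ± 0.26. Trem1, an activating receptor of myeloid cells, read 9.37 and 9.15 against 5.66 and 5.96, where the non-manipulated pools read 6.23 and 6.58. Rela, the p65 subunit of NF-kB, read 11.90 and 11.84 against 8.49 and 9.02, and all 6 other pools were between 8.49 and 9.13. The adjusted p was 0.000347 for Tmem181a, 0.000368 for Trem1 and 0.000357 for Rela.

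Several other rises concerned the cytoskeleton, signalling and the cell cycle. Tuba1c, an alpha-tubulin, read 15.83 and 15.92 against 12.86 and 12.99 (difference 2.95 ± 0.16). Spry4, a feedback inhibitor of receptor tyrosine kinase signalling, read 14.76 and 14.58 against 11.34 and 12.46 (2.77 ± 0.36), and Spred2, an inhibitor of the same pathway named after its values were seen, rose by 2.19, while the other 5 Sprouty and Spred genes were not called. The p21-activated kinase gene Pak4 rose by 2.66 ± 0.27 from the 11.16 and 11.88 of the antibody-only pools, and both combined pools lay above all other pools. E2f2, a transcription factor of the cell cycle, read 10.37 and 10.02 against 7.56 and 7.53, and Cdca5, which encodes the cohesin protector sororin, read 12.85 and 12.64 against 9.86 and 10.38. For Cdca5 the non-manipulated pools at 11.81 and 11.56 lay between, whereas E2f2 read 7.90 in both of them.

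Ube2j1, a ubiquitin-conjugating enzyme of endoplasmic-reticulum degradation, read 11.85 and 11.93 against 9.32 and 9.12 (2.67 ± 0.17). Atp6v0d1, a subunit of the proton pump of lysosomes, rose by 3.12, from 8.12 and 9.76 to 12.03 and 12.08. The non-manipulated pools read 11.23 and 11.22 for it, so the antibody-only pools were the low ones.

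**Figure D2:**
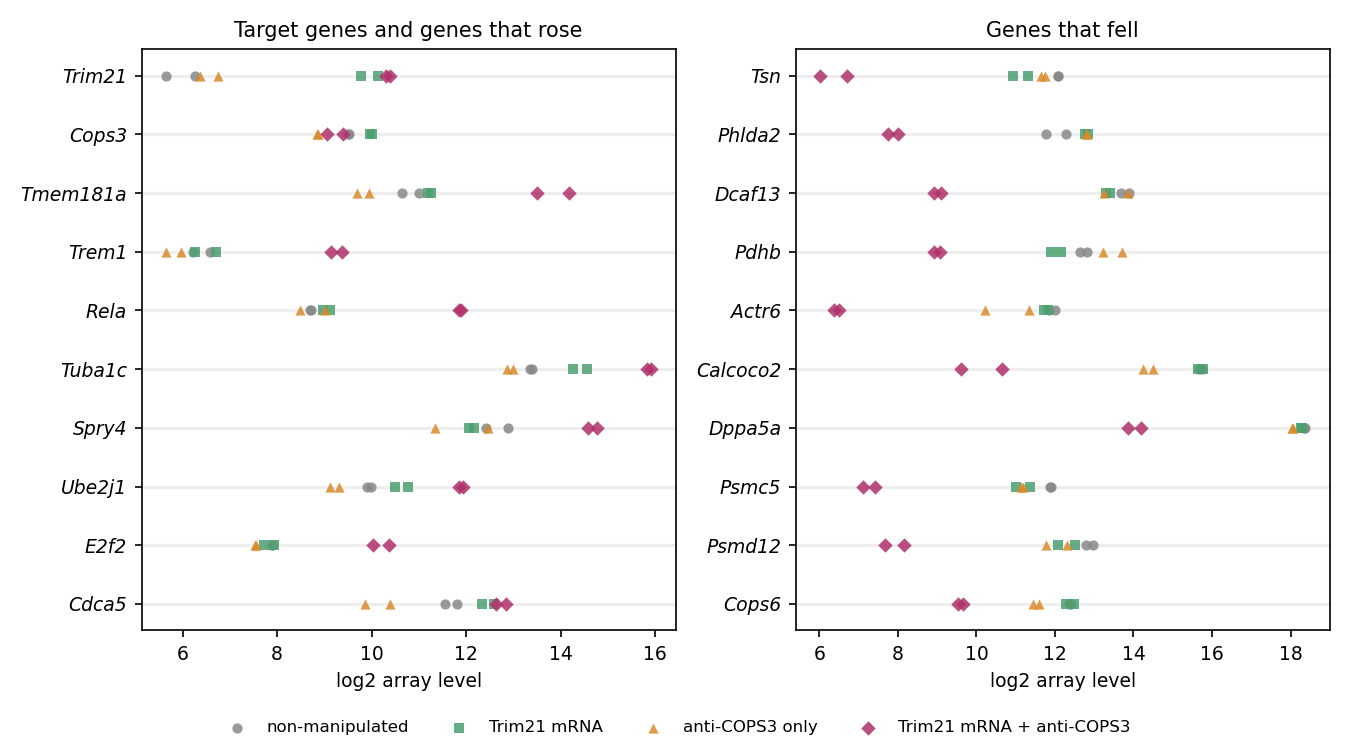
Levels of 20 genes in all 8 pools. The x axis is the deposited log2 level and each symbol is 1 pool: circles are non-manipulated, squares Trim21 mRNA, triangles anti-COPS3 only, diamonds both agents. In the right panel the diamonds lie below the other 6 pools for all 10 genes, and in the left panel Trim21 is high in the squares and diamonds while Rela and E2f2 are high in the diamonds only.

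The genes with the largest falls had different functions. Tsn, which encodes the nucleic acid-binding protein translin, read 6.71 and 6.02 with both agents against 11.64 and 11.74 with antibody alone, a fall of 5.33 ± 0.25 (adjusted p = 0.000137). Phlda2, an imprinted gene known for restraining placental growth, read 8.00 and 7.75 against 12.79 and 12.82. Dcaf13, which encodes both a receptor of cullin-4 ligases and a component of the small-subunit processome, read 9.10 and 8.92 against 13.86 and 13.24. Both Phlda2 (fall 4.93 ± 0.20) and Dcaf13 (fall 4.54 ± 0.23) lay between 11.77 and 13.89 in the 6 other pools.

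Pdhb, a subunit of pyruvate dehydrogenase, fell by 4.48, from 13.72 and 13.22 to 8.91 and 9.08. Actr6, an actin-related protein of chromatin remodelling, fell by 4.34, Wsb1, a substrate receptor of cullin-RING ligases, by 4.30, and Calcoco2, an autophagy receptor, by 4.25. Znhit6, which assists assembly of box C/D snoRNPs, fell by 4.22 and Selenos, a selenoprotein of endoplasmic-reticulum degradation, by 4.21. Dppa5a, an RNA-binding protein of pluripotent cells, read between 18.03 and 18.38 in the 6 other pools and 14.19 and 13.86 with both agents. The secreted Wnt antagonist gene Sfrp4 fell by 4.18, but the non-manipulated pools read 8.12 and 9.05 and those with Trim21 mRNA alone 5.53 and 6.57, so that the combined pools at 6.16 and 6.14 were like the Trim21 mRNA pools and the antibody-only pools were the high ones.

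In the proteasome list, the machinery that TRIM21 acts through, 18 of 40 measured genes fell (45%) and none rose, with a median difference of -1.05 and a median level of 10.50, where 37.2% of all genes fell. Against single antibody-only pools the median was -0.76 and -1.40, and 12 falls remained in the 4-array fit. Psmc5, an ATPase of the regulatory particle, read 7.41 and 7.11 against 11.14 and 11.19 and fell by 3.91 ± 0.19. Psmd12, another regulatory subunit, read 8.15 and 7.67 against 12.30 and 11.77 and fell by 4.13 ± 0.27. The core subunit Psma3 read 9.77 and 9.91 against 13.23 and 12.94.

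Of 18 measured genes in the list of TRIM21 and its ubiquitination partners, 2 rose (11.1%) and 1 fell (5.56%). The list's median level was 8.79, where 6.22% of all genes rose and 27.6% fell. Besides Trim21 itself, Nploc4, a cofactor of the p97 segregase, rose by 0.63 (adjusted p = 0.0392), a call lost in the 4-array fit and after centring. Uchl5, a deubiquitinase of the proteasome, read 8.14 and 7.73 against 10.34 and 10.78 and fell by 2.63 ± 0.24. Among cullin-RING ligase and neddylation genes 16 of 35 fell (45.7%) and none rose (median -0.69), with a median level of 9.71, where 27.6% of all genes fell, and 6 falls were also called in the 4-array fit. The scaffold gene Cul3 read 9.86 and 9.64 against 12.06 and 11.74, and Nedd8, the modifier that the COP9 signalosome removes, read 10.50 and 10.02 against 12.71 and 13.32. Autophagy genes showed 13 falls of 27 (48.1%) and no rise (median -0.60, median level 10.27), 3 of them in the 4-array fit. Of all genes at that level 37.2% fell.

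Ribosome assembly genes had the lowest median among the lists that were not added after their values were seen. Those lists too were chosen with earlier results of these data known. Of 78 measured, 48 fell (61.5%) and none rose, at a median level of 10.24, where 37.2% of all genes fell. The median difference was -1.34, and against each antibody-only pool apart it was -1.29 and -1.58, and 30 falls were called in the 4-array fit. Nop14, a factor of the small-subunit processome, read 7.72 and 7.46 against 10.65 and 10.65 (fall 3.06 ± 0.16). Nop58, a core protein of box C/D snoRNPs, read 10.90 and 10.94 against 13.90 and 13.69. In all 6 pools without both agents Nop14 lay at or above 10.65, so the groups did not overlap.

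Of 36 measured cytosolic ribosomal protein genes 24 were lower (66.7%) and none higher, with a median of -1.20. Their median level was 11.68, where 37.2% of all genes fell, and 13 falls were called in the 4-array fit. Rpl4 read 13.92 and 13.73 against 15.92 and 15.83, and Rps7 read 10.54 and 10.26 against 12.50 and 12.65. Of the 80 genes in the list, 36 had a cluster of their own. Translation factor genes had 16 falls of 38 (42.1%) and no rise, with a median of -0.88 that was -0.44 against pool 1 and -1.11 against pool 2. Their median level was 11.29, where 37.2% of all genes fell, and 8 falls were called in the 4-array fit. Eif4e, the cap-binding protein, read 13.50 and 13.41 against 15.57 and 15.60, and Eif3m, an eIF3 subunit, read 8.86 and 8.88 against 12.40 and 11.72. Medians of these 3 lists after quantile normalization were -0.99, -0.72 and -0.33, beside -0.03 over all genes.

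**Figure D3:**
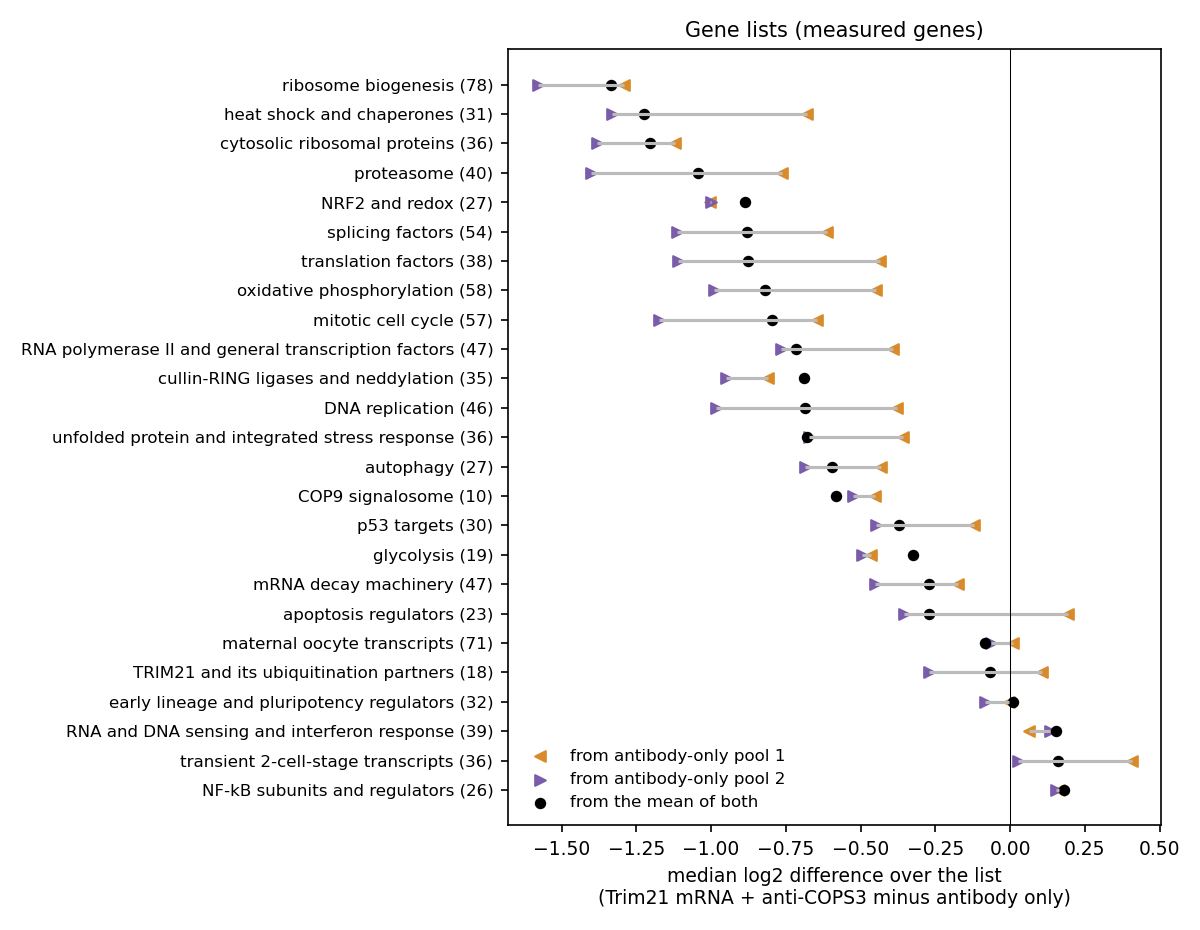
Median log2 difference over each gene list, both agents minus antibody only, with the number of measured genes in brackets. Black dots use the mean of the antibody-only pools, left-pointing triangles pool 1 and right-pointing triangles pool 2. Ribosome biogenesis (median -1.34) is lowest of the lists plotted, and the lists near 0 include maternal oocyte transcripts and NF-kB genes.

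Splicing factor genes had 1 rise and 26 falls of 54 (48.1%, median -0.88, median level 9.87), 7 of the falls in the 4-array fit. Of all genes at that level 27.6% fell. RNA polymerase II and general transcription factor genes had 1 rise and 20 falls of 47 (42.6%), 8 of the falls in the 4-array fit, and their median level was 10.18, where 37.2% of all genes fell. Their median difference was -0.72, and -0.39 against pool 1 and -0.77 against pool 2. The mRNA decay machinery had 3 rises and 8 falls of 47 (17%, median level 8.92), a smaller share of falls than the 27.6% of all genes at that level. Its median of -0.27 became -0.05 after quantile normalization, with 8 rises and 6 falls, and 0.00 after loess.

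Mitotic genes had 4 rises and 27 falls of 57 (47.4%), with a median difference of -0.80 and a median level of 10.59, where 37.2% of all genes fell. DNA replication genes had 19 falls of 46 (41.3%) with no rise, with a median of -0.69 and a median level of 9.06, where 27.6% of all genes fell. Against pool 1 and pool 2 the medians were -0.65 and -1.18 for mitotic genes and -0.38 and -0.99 for replication genes. Cdk1, the mitotic kinase, read 10.86 and 10.68 against 12.97 and 13.25. Cdc20, which activates the anaphase-promoting complex, read 10.67 and 10.38 against 12.56 and 12.59, both below the 14.86 to 15.11 of the 4 pools without antibody. The phosphatase gene Cdc25c fell by 2.78. Gmnn, the licensing inhibitor geminin, fell by 2.96. In the 4-array fit 8 of the mitotic and 5 of the replication falls were called. Both groups had received the antibody and both carry the label of stunted division, and the share of undivided embryos per pool was not given.

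Heat shock and chaperone genes had 17 falls (54.8%) and 1 rise of 31, with a median of -1.23, -0.68 against pool 1 and -1.33 against pool 2, and a median level of 9.70, where 27.6% of all genes fell. In the 4-array fit 7 of the falls were called. Among them was Hsp90aa1, which read 13.00 and 12.63 against 14.99 and 15.06. The chaperonin gene Cct2 read 8.70 and 7.87 against 11.78 and 11.61. Oxidative phosphorylation genes had 21 falls (36.2%) and 1 rise of 58, with a median level of 7.88, where 11.7% of all genes fell. Their median of -0.82 was -0.45 against pool 1 and -0.99 against pool 2, and 7 falls were called in the 4-array fit. Ndufs8, a subunit of complex I, read 7.56 and 7.68 against 11.03 and 10.78. In the NRF2 and redox list 14 of 27 fell (51.9%) and none rose (median -0.89, median level 7.89), 5 of them in the 4-array fit. Of all genes at that level 11.7% fell.

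Sod1, the cytosolic superoxide dismutase, read 11.36 and 10.31 against 14.91 and 14.63 and fell by 3.94. The non-manipulated pools read 13.71 and 13.83, so the antibody-only pools were above them and the combined pools below. Prdx4, a peroxidase of the endoplasmic reticulum, fell by 2.88. Unfolded protein and integrated stress response genes had 2 rises and 11 falls of 36 (30.6% lower, median -0.68), 3 falls of which were called in the 4-array fit, near the 27.6% of all genes at their median level of 9.39. The p53 targets had 1 rise and 8 falls of 30 (26.7% lower, median -0.37), with 3 falls in the 4-array fit. At their median level of 7.885, 11.7% of all genes fell. Glycolysis genes had 1 rise and 7 falls of 19 (36.8% lower, median -0.33), beside 11.7% of all genes lower at their median level of 6.86. None of these calls held in the 4-array fit or with a spread for each group. Apoptosis regulators had 2 falls of 23 (8.7%) and no rise, beside 11.7% of all genes at their median level of 6.99. Their median of -0.27 was 0.20 against pool 1 and -0.36 against pool 2, and neither fall was called in the 4-array fit.

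TRIM21 is also known for starting innate signalling when it meets antibody-coated particles, so genes of those pathways were counted. In the list of RNA and DNA sensing and interferon response 1 of 39 measured genes rose (2.56%) and 1 fell (2.56%), with a median of 0.16. The list's median level was 5.24. Over all genes at levels of 4 to 6 the median was 0.12, and 2.94% rose and 0.748% fell. The adaptor gene Myd88 read 8.88 and 9.06 against 6.84 and 7.64 (1.73 ± 0.26), and Ifitm3, an interferon-induced membrane protein, fell by 1.25, both calls being lost in the 4-array fit. Of 26 measured NF-kB subunit and regulator genes 2 rose (7.69%) and 1 fell (3.85%), with a median of 0.18. Their median level was 5.74, in the same range of levels. Besides Rela, Nfkb2 read 6.90 and 6.82 against 5.68 and 5.52 (1.26 ± 0.14), and Map3k7, the kinase TAK1, fell by 0.94. The Nfkb2 call was lost in the 4-array fit, and the Map3k7 call was lost there, after quantile normalization and after loess.

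Transient 2-cell transcripts divided into 12 genes that rose (33.3%) and 10 that fell (27.8%) among 36 measured, with a median of 0.16. Their median level was 10.31, where 8.76% of all genes rose and 37.2% fell. In the 4-array fit 0 of the rises and 5 of the falls were called. All 6 Zscan4 genes of the 2-cell stage rose, by 1.05 for Zscan4d and by 1.89 to 2.09 for Zscan4a, Zscan4b, Zscan4c, Zscan4e and Zscan4f. Zscan4a and Zscan4e are annotated as pseudogenes, and the others encode zinc finger proteins. Zscan4c read 11.89 and 11.96 with both agents, 9.45 and 10.56 with antibody alone and 9.35 and 9.01 in non-manipulated embryos. Zscan4b read 11.91 and 11.69 against 9.19 and 10.29, and Zscan4f 12.14 and 12.08 against 9.60 and 10.58. All 6 were called against each antibody-only pool apart, and none in the 4-array fit. The copies are near identical, so array probes may not separate them, and the 6 values may not be independent.

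The upstream sequences of Zscan4b and Zscan4f are shown because the genes moved together and the start regions can be compared directly. They are the 100 bases before the annotated start, 5′ to 3′ on the gene's strand, from RefSeq on GRCm38.p6, with TATAA in capitals.
Zscan4b, chr7:10905051-10905150, minus strand: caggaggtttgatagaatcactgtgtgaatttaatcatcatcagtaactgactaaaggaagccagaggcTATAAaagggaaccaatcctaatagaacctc
Zscan4f, chr7:11397815-11397914, plus strand: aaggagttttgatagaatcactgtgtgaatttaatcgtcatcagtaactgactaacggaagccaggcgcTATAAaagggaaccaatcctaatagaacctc
The windows agree at 94 of 100 bases, and in both the TATAA begins 31 bases before the start.

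Other members of the list rose too. Tcstv3 read 14.21 and 14.68 against 13.13 and 13.18 (1.29 ± 0.21). The Usp17-like deubiquitinase gene Usp17lc read 13.83 and 14.27 against 10.24 and 12.29, and Usp17la rose by 2.60, whereas Usp17lb fell by 1.70. None of these 4 calls held in the 4-array fit.

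Among the falls, the homeobox gene Obox6 read 10.86 and 10.71 against 12.14 and 12.40, below the 13.63 to 14.26 of the 4 pools without antibody. The Trim43 genes, relatives of Trim21 that are transcribed in the early embryo, were chosen after their values were seen. Trim43a read 9.51 and 9.49 against 11.86 and 11.70, Trim43b 8.97 and 8.39 against 12.69 and 12.10, and Trim43c 8.27 and 7.66 against 11.42 and 10.86. In each of them the 4 pools without antibody were at or above 12.38, and all 3 falls were also called in the 4-array fit. Over 63 measured Trim genes 3 rose (4.76%), Trim21 among them, 8 fell (12.7%) and the median was 0.00, close to the 4.37% and 10.5% of all genes.

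Maternal oocyte transcripts had 17 rises (23.9%) and 10 falls (14.1%) among 71 measured, at a median level of 12.18. Of all genes at that level 6.13% rose and 47.9% fell. The list's median difference was -0.09 on the deposited scale, 0.45 after quantile normalization and 0.38 after loess. Npm2, the oocyte nucleoplasmin, read 14.45 and 14.67 against 11.88 and 12.54 (2.35 ± 0.25). Nobox, an oocyte homeobox factor, read 11.29 and 11.34 against 8.87 and 9.46 (2.15 ± 0.21). Their levels in the 4 pools without antibody were 12.65 to 13.01 and 8.99 to 9.25, below the combined pools. In the 4-array fit 2 of the 17 rises and none of the falls were called.

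Sebox, an oocyte homeobox gene outside that list, read 12.27 and 12.46 against 9.06 and 10.14 (2.77 ± 0.35). Zar1l, a relative of the maternal-effect gene Zar1, rose by 2.45, from 10.93 and 11.20 to 12.82 and 14.21, and the combined pools themselves were far apart. Of the subcortical maternal complex, Nlrp5 was not called (0.20, adjusted p = 0.818), reading 12.23 and 11.95 against 11.13 and 12.65, above one antibody-only pool and below the other. Tle6 read 10.67 and 10.58 against 9.47 and 9.48, and Ooep read 9.54 and 9.08 against 7.97 and 8.10. Other oocyte genes fell: Zar1 itself read 12.55 and 11.92 against 13.31 and 14.70 (-1.77 ± 0.47, adjusted p = 0.0486), Bmp15 read 17.65 and 16.83 against 18.60 and 18.48, and Gdf9 read 8.34 and 8.34 against 9.08 and 9.01. These 3 genes and Nlrp5 were picked after their values were seen. The calls for Zar1l, Tle6, Ooep, Zar1, Bmp15 and Gdf9 were lost in the 4-array fit, after loess those for Zar1, Bmp15 and Gdf9, and after quantile normalization those for Zar1 (-1.12) and Gdf9.

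**Figure D4:**
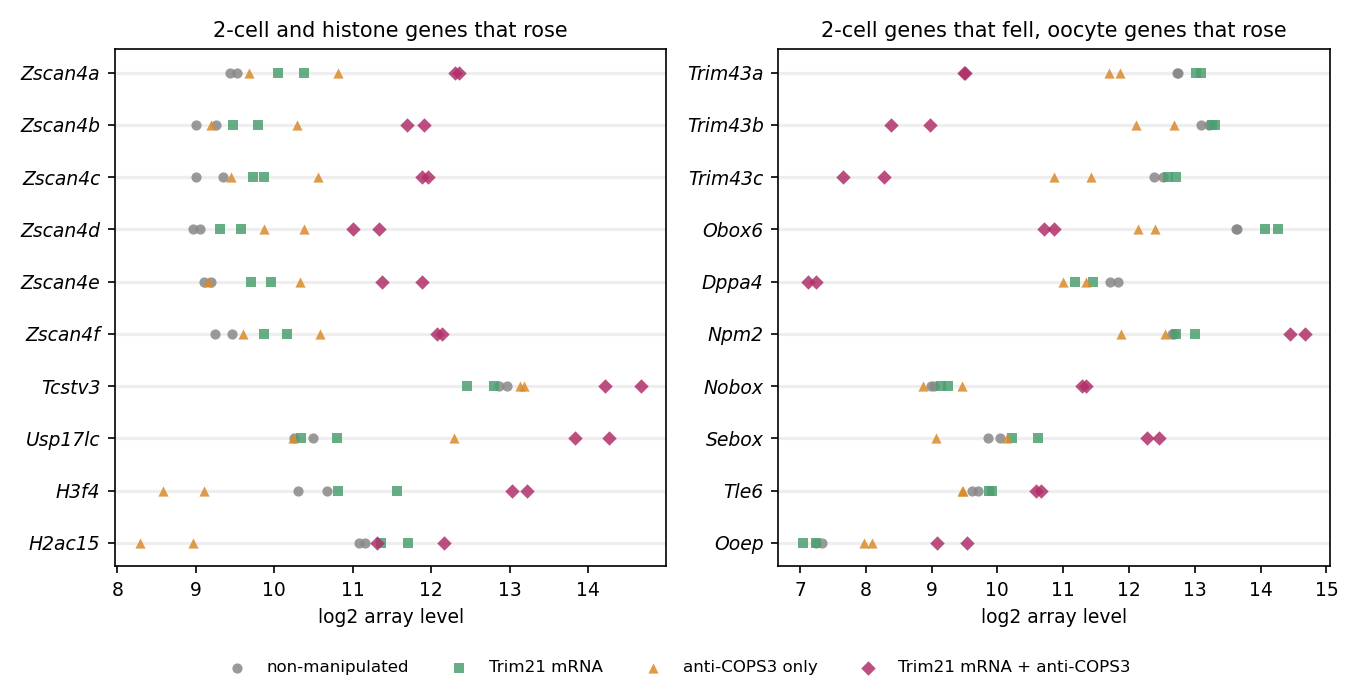
Levels of 2-cell, histone and oocyte genes in all 8 pools, on the deposited log2 scale. Circles are non-manipulated, squares Trim21 mRNA, triangles anti-COPS3 only and diamonds both agents. The diamonds lie to the right of the triangles for the Zscan4 genes, H3f4, H2ac15 and the oocyte genes, and to the left of all other pools for the 3 Trim43 genes, Obox6 and Dppa4.

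Early lineage and pluripotency genes had 3 rises (9.38%) and 4 falls (12.5%) of 32, with a median of 0.01. These shares were near the 6.26% and 11.7% of all genes at their median level of 7.14. Dppa4, a chromatin protein of pluripotent cells, read 7.25 and 7.12 against 11.34 and 11.00 and fell by 3.99 ± 0.19. Sall4, a pluripotency factor, rose by 1.26, with the non-manipulated pools at 11.95 and 11.88 like the combined pools at 12.36 and 11.87. Its call was lost in the 4-array fit.

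Clustered histone genes, counted after their values were seen, had 11 rises of 29 measured (37.9%) and no fall, with a median of 0.68. Their median level was 6.69, where 6.26% of all genes rose and 11.7% fell. These genes make most histone messages of S phase, without poly(A) tails. H3f4 read 13.22 and 13.03 against 9.11 and 8.58 (4.28 ± 0.30). H2ac15 read 11.31 and 12.16 against 8.29 and 8.96, where the non-manipulated pools at 11.08 and 11.16 were close to the combined pools. H2ac1 read 14.87 and 14.71 against 12.72 and 12.59. In the 4-array fit 5 of the 11 rises were called, and array probes may not separate the near-identical copies.

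Small noncoding RNA genes had the largest rises of the whole comparison, and these too were counted after their values were seen. Of 955 genes annotated as snoRNA, which guide modification of ribosomal RNA, 168 rose (17.6%) and 8 fell (0.838%). Of 914 snRNA genes, parts of the splicing machinery and their copies, 107 rose (11.7%) and 2 fell (0.219%). Of 37 guide RNAs of Cajal bodies 13 rose, and of 62 ribosomal RNA genes 9 rose, with no fall in either class. Protein-coding genes showed the opposite balance, with 696 rises (3.62%) and 2100 falls (10.9%) of 19231, and pseudogenes, whose clusters may pick up the RNA of their parent genes, 171 rises and 1003 falls of 4804.

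With a mean level of at least 6, the 244 snoRNA genes had a median of 1.36 and the 9026 protein-coding genes a median of -0.27. After quantile normalization the snoRNA median was 1.70 and the protein-coding median -0.06. In the 4-array fit 98 snoRNA rises and 1 fall were called.

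The Y RNAs, short RNAs bound by the Ro60 protein, were among the genes that differed most. Rny1 read 15.95 and 16.21 with both agents, 9.20 and 8.17 with antibody alone, 13.64 and 14.18 with the mRNA alone and 11.83 and 11.60 in embryos left alone. The antibody-only pools were the lowest and the combined pools the highest, and the difference was 7.40 ± 0.36 (adjusted p = 0.000137). Rny3 read 18.04 and 17.81 with both agents against 9.35 and 11.68 with antibody alone, while the 4 pools without antibody were between 16.10 and 17.81. For Rny3 the antibody-only pools thus stood apart from all 6 other pools.

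Snord13, which guides acetylation of ribosomal RNA, read 18.15 and 18.62 against 10.62 and 11.30 (7.43 ± 0.34). Snora30 read 16.17 and 17.35 against 10.06 and 10.85, and Snord118, the U8 snoRNA needed for large-subunit ribosomal RNA, read 14.36 and 15.20 against 9.39 and 9.04. For these 3 genes the combined pools lay above all 6 other pools. The snRNAs of the minor spliceosome behaved alike: Rnu11 read 11.95 and 13.29 against 7.91 and 8.75, and Rnu12 read 12.74 and 13.34 against 8.96 and 8.66. Rpph1, the RNA of RNase P, rose by 3.15, from 11.68 and 13.20 to 15.64 and 15.54.

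Among snoRNAs and snRNAs with a symbol of their own the count was 18 rises and 1 fall of 44 box C/D genes, 10 rises of 18 box H/ACA genes, and 13 rises of 15 U-type snRNA genes. The fall was Snord93, which read 7.01 and 7.63 against 13.00 and 10.39. It was lost in the 4-array fit.

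**Figure D5:**
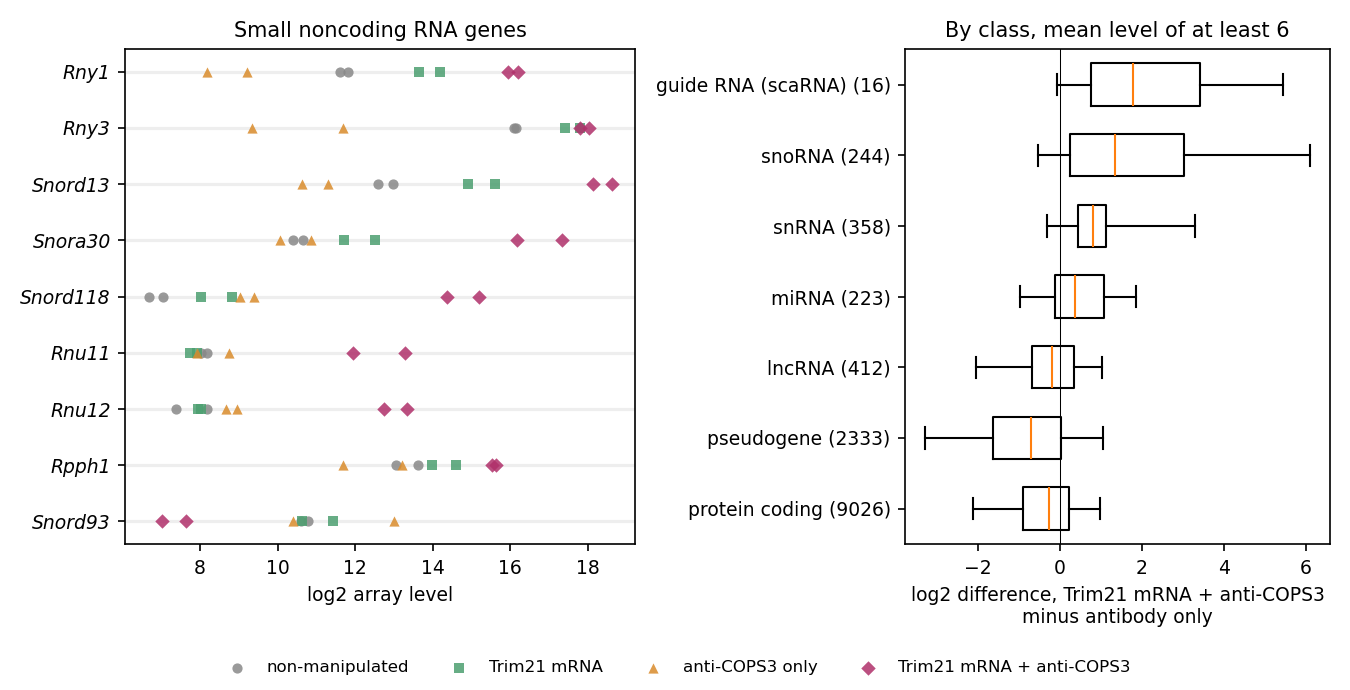
Left, deposited log2 levels of 9 small RNA genes in all 8 pools (circles non-manipulated, squares Trim21 mRNA, triangles anti-COPS3 only, diamonds both agents). Right, log2 difference between both agents and antibody only by RefSeq gene class, over genes with a mean level of at least 6, with the number of genes in brackets. Boxes span the quartiles with the median as a line, and whiskers reach the 5th and 95th percentiles. The snoRNA median is 1.36 and the protein-coding median -0.27.

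Of 925 microRNA genes 62 rose (6.7%) and 21 fell (2.27%), beside 4.37% and 10.5% of all genes. In the let-7 family, counted after its values were seen, 3 of 12 hairpin genes rose and 1 fell, with a median of 0.88. Their mature sequences are shown because genes with the same seed moved in opposite directions. The sequences are from RefSeq on GRCm38.p6, 5′ to 3′, with the seed (bases 2 to 8) in capitals, and the array does not tell a precursor from a mature miRNA.
let-7c-5p of Mirlet7c-2, chr15:85706616-85706637, plus strand: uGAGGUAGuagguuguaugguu
let-7f-5p of Mirlet7f-1, chr13:48537889-48537910, minus strand: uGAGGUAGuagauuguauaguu
miR-98-5p of Mir98, chrX:151913229-151913250, plus strand: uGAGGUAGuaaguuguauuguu
let-7d-5p of Mirlet7d, chr13:48536078-48536099, minus strand: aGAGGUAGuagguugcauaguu

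Mirlet7c-2 read 6.05 and 6.45 against 4.13 and 4.01, and it was between 3.98 and 4.21 in the 4 pools without antibody. Mirlet7f-1 read 7.51 and 7.24 against 6.25 and 6.07. Mir98 read 7.99 and 8.61 against 7.31 and 6.31. In these genes the combined pools were the highest of the 8. Mirlet7d, which shares the seed and lies near Mirlet7f-1 on chromosome 13, read 5.69 and 6.45 against 9.09 and 7.44 and fell by 2.20. Only the Mirlet7c-2 call held in the 4-array fit.

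Promoter letters were compared over the 250 bases before the annotated start, for the 15589 of 19231 tested protein-coding genes that had a promoter in the table. TATAA on the gene's strand between 40 and 16 bases before the start was found in 5.15% of 583 called rises, 2.28% of 1712 called falls and 4.41% of all these promoters, and in 2.28% of the 7460 genes with a mean level of at least 6. The ETS motif CCGGAAG, on either strand, was found in 7.38% of the rises and 19.5% of the falls. It was in 9.43% of all these promoters and 15.3% of the genes with a mean level of at least 6. CCAAT was found in 36.7% of the rises, 40.9% of the falls, 35.9% of all these promoters and 38.1% of the genes at level 6 or more. The median level was 7.16 for the rises, 9.38 for the falls and 8.16 for the genes at level 6 or more. Whether level accounts for these shares was not tested. Phlda2 and Psmd12 are shown as falls of either kind, with TATAA in capitals for Phlda2 and the ETS motif, read from the other strand, in capitals for Psmd12.
Phlda2, chr7:143502525-143502624, minus strand: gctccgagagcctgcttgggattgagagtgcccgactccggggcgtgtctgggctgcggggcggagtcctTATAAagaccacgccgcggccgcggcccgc
Psmd12, chr11:107479428-107479527, plus strand: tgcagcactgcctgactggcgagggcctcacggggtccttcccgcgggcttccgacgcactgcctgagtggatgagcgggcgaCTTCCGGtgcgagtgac
In Phlda2 the TATAA begins 30 bases before the start, and in Psmd12 the motif begins 17 bases before it. These are matches of letters, and no factor's binding was measured.

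Markers of the embryo and of other cells were read in the same arrays. All 11 late 2-cell markers had a mean level of at least 6, and their mean level was 11.26 and 11.13 with both agents and 10.82 and 11.49 with antibody alone, with 4 rises and 3 falls. Of 22 measured cumulus and granulosa markers 3 fell and none rose, and their mean level was 5.29 and 5.42 against 5.64 and 5.78. The list's median difference was 0.05 and its median level 5.23 and 5.36 against 5.12 and 5.25, so the mean and the median differed in sign. Hsd3b1, which was not called, read 6.16 and 6.10 against 6.88 and 10.32. Cyp11a1, a steroid-synthesis enzyme of luteal and granulosa cells, read 5.47 and 5.64 against 9.93 and 9.05, and 5.07 to 6.38 in the 4 pools without antibody, so the antibody-only pools were the high ones. In RNA of whole pools, fewer cells of a type and less RNA per cell cannot be told apart. Amhr2 fell by 1.70, from 10.27 and 9.62, but was highest in the non-manipulated pools at 12.02 and 11.99. Star fell by 0.53, and was at or below 5.04 in every pool.

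Ccng1, a p53 target, had the same pattern as Cyp11a1, with 10.41 and 9.90 in the antibody-only pools and at most 8.26 in the others. Its part in the p53 count above, and the part of granulosa-type RNA in any fall, was not tested. Of 17 measured oviduct markers 2 fell, Epcam by 1.96 and Cdh1 by 1.43. Of 13 blood and immune markers 1 rose, S100a9 by 0.78, and of 19 sperm markers none was called. The mean level of the blood list was 5.21 and 5.41 against 5.34 and 5.08.

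Whether adding Trim21 mRNA made a different change with the antibody than without it was tested as the difference of both differences. The interaction was called for 1253 genes (4.08%), 192 higher (0.625%) and 1061 lower (3.46%), with 4503 at an unadjusted p under 0.05. Of these, 1239 were also called in the same direction for both agents against antibody alone. Trim21 was not among them (-0.21 ± 0.37, adjusted p = 0.912), so its rise was of like size with and without antibody within that error. Tsn, Phlda2, Dcaf13, Rela, Tmem181a and Rny1 were among the 1253.

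The lists with most interaction calls were ribosome biogenesis, with 29 of 78 lower, cytosolic ribosomal proteins, with 17 of 36 lower, and the proteasome, with 13 of 40 lower, none of the 3 with a higher call. For the maternal oocyte list 7 of 71 were higher and none lower. No interaction was called for the Zscan4 genes. Their median difference between Trim21 mRNA alone and non-manipulated embryos was 0.65, with none of the 6 called there. Leaving out 1 non-manipulated pool left 99 or 113 interaction calls, and leaving out 1 Trim21 mRNA pool 199 or 203.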

How the data were processed

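Total RNA of 8 pools of embryos was measured, per the labels. Values are log2 levels per transcript cluster deposited by the authors; Affymetrix Expression Console is the tool in the submitters' processing notes, and the summarisation method is not given in the sources used here. Of 65956 clusters, 1 with a value over 100 was left out (a whole number, the deposited value of another, unknown unit), 31262 named 1 gene and were used, and 1487 named several and 33206 none. Symbols of 1139 were updated from RefSeq. No filter and no further normalization was applied. The array's genome build is not given in the sources used here.

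Differences were tested with limma 3.58.1 under R 4.3.3 (two-sided, with eBayes after lmFit) by 1 fit of 4 group means to 8 arrays (4 residual and 6.83 total degrees of freedom, median standard error 0.22), with Benjamini-Hochberg adjustment over 30705 genes. The script was tested on simulated data. Groups of 2 allow no exact test to reach 0.05. Same-numbered pools did not deviate together (correlations -0.191 to 0.143), so no block was used.

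The members, lists and named genes were chosen with earlier results of these data known. Named were Trim21, the COP9 genes, the 10 largest rises and falls (also against both pools apart; predicted, small RNA, receptor-segment, olfactory, histone genes and pseudogenes left out) and up to 3 called genes of each list; others are said to be chosen after seeing values. Alternatives were scaling (quantile, centring, cyclic loess), filters, clusters, priors, the arrays fitted, a replicate block and each array left out. Figures used matplotlib 3.10.9. RefSeq sequences are from tables on GRCm38.p6.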

Additional observations from a re-analysis of the deposited data

Results flagged for a closer look

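The change made by Trim21 mRNA differed with and without the antibody, by the limma interaction at an adjusted p under 0.05, for these genes. Each value is the difference made with antibody minus the difference made without it, in log2, and no explanation was tested. Leaving out 1 array without antibody left 99 to 203 interaction calls over all genes.

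Among protein degradation genes the value was -1.92 for Cops6, -1.97 for Cul3, -2.17 for Nedd8, -4.11 for Dcaf13, -3.68 for Wsb1, -2.94 for Psma3, -3.21 for Psmc5, -3.52 for Psmd12, -1.90 for Uchl5, -3.77 for Selenos and 1.99 for Ube2j1. For ribosome assembly and translation genes it was -2.56 for Nop14, -2.40 for Nop58, -3.73 for Znhit6, -2.19 for Rpl4, -2.21 for Rps7, -3.19 for Eif3m and -1.96 for Eif4e.

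Cell-cycle genes had -1.90 for Cdc20, -2.46 for Cdc25c, -2.19 for Cdk1, -2.25 for Gmnn, 1.86 for Cdca5 and 2.72 for E2f2. Metabolic, redox and chaperone genes had -3.78 for Pdhb, -3.12 for Ndufs8, -3.13 for Sod1, -2.38 for Prdx4, -2.81 for Cct2 and -1.95 for Hsp90aa1. The other large falls had -4.36 for Tsn, -5.72 for Phlda2, -4.18 for Actr6, -4.26 for Calcoco2 and -3.95 for Dppa5a.

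Embryonic and oocyte genes had -3.53 for Dppa4, -2.02 for Obox6, -2.60 for Trim43a, -3.84 for Trim43b, -3.38 for Trim43c, 1.58 for Tcstv3, 1.97 for Nobox, 2.16 for Npm2 and 1.42 for Ooep. Signalling and cytoskeletal genes had 2.78 for Rela, 1.18 for Nfkb2, 3.38 for Trem1, 3.32 for Spry4, 1.93 for Spred2, 2.35 for Pak4, 3.62 for Tmem181a and 1.92 for Tuba1c. Histone genes had 3.58 for H3f4, 2.70 for H2ac15 and 2.30 for H2ac1.

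Small RNA genes had 5.20 for Rny1, 5.92 for Rny3, 4.96 for Snord13, 4.73 for Snora30, 4.00 for Snord118, 4.56 for Rnu11, 4.02 for Rnu12 and 2.02 for Mirlet7c-2. Markers of other cells had -2.77 for Cyp11a1 and -2.04 for Epcam.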

How the results depend on the processing

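Leaving out 1 array or changing only the error model cannot turn the sign of a called gene, since its groups did not overlap. Only rescaling and averaging a gene's rows could do so. The 101 named genes called on the deposited scale kept their direction in every alternative run. Of them, 68 were still called in the fit to the 4 compared arrays, 81 with a spread for each group, 95 after quantile normalization, 94 after loess, 93 after centring and 95 with the replicate block. Uncalled genes turned sign: Cops5 was 0.015 after quantile normalization and 0.83 to -1.62 with 1 array left out, the first against antibody-only pool 1 alone, Cops7b was 0.27 after quantile normalization and 0.11 after loess, and Nlrp5 was -0.56 to 0.96 with 1 array left out, the first against antibody-only pool 2 alone. The fit to 4 arrays called 1408 genes (231 higher, 1177 lower) and a spread for each group 2003 (356 and 1647). Calls higher numbered 2148 after quantile normalization, 796 after centring and 814 at 2-fold or more. Interaction calls higher numbered 515 after quantile normalization, 106 after centring, 372 after loess and 112 with the replicate block.

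Genes at least 1 log2 unit from both antibody-only pools numbered 4593 (1409 higher) over all transcript clusters, and 1225 were higher after quantile normalization. At 0.5 log2 unit there were 6080 (2186 higher, 3894 lower) and at 1.5 there were 1540 (303 and 1237). In the counts that follow, where an antibody-only pool was left out, genes beyond both pools were beyond the remaining pool only. Leaving out 1 array gave 2490 to 10446 calls (604 to 4569 higher, 1886 to 5877 lower), 99 to 5663 interaction calls (23 to 2163 higher, 76 to 3500 lower) and 2756 to 5777 genes beyond both pools (688 to 1872 higher, 2068 to 3905 lower). Main calls numbered 2490 without combined pool 2, 3005 without either non-manipulated pool, 10446 without antibody-only pool 1 and 8449 without pool 2, the last pair being fits in which the antibody-only spread does not enter. The replicate block gave 3816 calls (953 higher, 2863 lower), and the numbers did not pair the samples. All other causes were not tested. Precision is limited by 2 arrays a group, and low levels near an array's background have no measured detection limit here.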
